A study of Homo sapiens with 15 samples.

Results

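The genes described here sense DNA double-strand breaks or repair them by recombination. They were taken by symbol from a list of 9 genes, ATM, ATR, BRCA1, BRCA2, RAD50, NBN, MDC1, PRKDC and BLM, and 8 of the 9 were measured among 730 endogenous genes. BLM was not analyzed here. Cultures of HCT116, a cell line of human colorectal carcinoma, were left untreated (control) or treated for 24 h with 40 µM thymoquinone (TQ, a plant-derived compound), with 15 µM 5-fluorouracil (5-FU, a pyrimidine antimetabolite), with 35 µM TQ plus 35 µM 5-FU (Combi), or with 35 µM of the TQ and 5-FU hybrid SARB. Each of the 5 groups had 3 samples, described as biological replicates, all of 1 cell line. The compounds were dissolved in DMSO, and the control is labeled as untreated, so solvent and compound cannot be told apart. RNA was counted with the NanoString PanCancer Pathways panel, in which 1 probe pair with a color barcode reports each gene and barcodes are counted without amplification.

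In cells, a double-strand break is first bound by the complex that RAD50 and NBN form with MRE11, which recruits and activates the kinase ATM. MDC1 is the scaffold that reads the phosphorylated histone H2AX next to the break and holds ATM there. ATR is the sister kinase that answers to single-stranded DNA and stalled replication forks, and PRKDC encodes the catalytic subunit of DNA-PK, the kinase of non-homologous end joining. BRCA1 promotes resection of the broken ends, and BRCA2 acts in the strand exchange of homologous recombination. 5-FU inhibits thymidylate synthase and leads to uracil and fluorouracil in DNA, and replication past such lesions is known to activate ATR.

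The sequence before the start site is shown for 3 of the 4 members that were called against control, so that the regions that start these transcripts can be set side by side. RefSeq windows on GRCh38.p14 matched 6 of the 8 measured members by symbol (ATM, ATR, BRCA1, BRCA2, RAD50 and MDC1). Each stretch holds the 250 bases before the start, 5′ to 3′ on the gene's own strand, and ATM is shown by the first of its 2 windows. Capitals mark every match, on either strand, to CCAAT (the NF-Y box), GGGCGG (Sp1), CGGAAG (ETS), TTTGAA (the cell cycle homology region, CHR) or the E2F-type motif TTTNNCGC, and no 2 matches overlap in these 3 stretches. ATR lies at chr3:142578734-142578983 on the minus strand, MDC1 at chr6:30717282-30717531 on the minus strand, and ATM at chr11:108222817-108223066 on the plus strand.
ATR: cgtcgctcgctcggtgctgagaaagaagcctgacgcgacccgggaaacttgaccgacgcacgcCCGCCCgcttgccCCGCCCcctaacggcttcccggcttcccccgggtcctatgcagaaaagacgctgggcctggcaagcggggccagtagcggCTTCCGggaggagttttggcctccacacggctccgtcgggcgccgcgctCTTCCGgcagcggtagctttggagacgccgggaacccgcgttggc
MDC1: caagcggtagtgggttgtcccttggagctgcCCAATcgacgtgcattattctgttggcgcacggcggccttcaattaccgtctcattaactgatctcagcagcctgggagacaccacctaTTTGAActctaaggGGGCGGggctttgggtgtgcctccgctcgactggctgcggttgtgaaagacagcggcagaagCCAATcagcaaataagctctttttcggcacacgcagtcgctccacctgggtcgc
ATM: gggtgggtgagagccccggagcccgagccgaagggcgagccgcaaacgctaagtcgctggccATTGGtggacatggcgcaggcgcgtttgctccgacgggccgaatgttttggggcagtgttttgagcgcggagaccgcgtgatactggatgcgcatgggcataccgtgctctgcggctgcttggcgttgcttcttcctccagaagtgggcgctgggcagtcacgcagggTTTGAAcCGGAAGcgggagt

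The ATR stretch held 2 matches to the Sp1 motif, 187 and 174 bases before the start, and 2 to the ETS motif, 94 and 45 bases before it. The MDC1 stretch held 2 CCAAT boxes at 219 and 54 bases, with 1 Sp1 match at 116 bases and 1 TTTGAA at 130 bases. The ATM stretch held 1 CCAAT box at 188 bases, 1 TTTGAA at 20 bases and 1 ETS match at 13 bases. The 6 members matched have 8 windows, 2 each for ATM and BRCA1. The ETS motif was present in 6 of the 8, both ATM windows among them, and in 16.5% of all 35116 RefSeq windows of this length. The CCAAT box was in 4 of the 8 windows and in 32.0% of all, the Sp1 motif in 3 and 42.6%, TTTGAA in 2 and 13.3%, and the E2F-type motif in 0 and 5.92%. These are matches of letters, and neither binding nor promoter activity was measured.

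Total endogenous counts ranged from 135017 to 607782 per sample, so every raw count was scaled to a common geometric mean of the 40 housekeeping genes, giving the scaled counts. A call, higher or lower, needed a change of at least 1.5-fold and an adjusted p no larger than 0.05 (edgeR's quasi-likelihood test, Benjamini-Hochberg over 730 genes). So scaled, the median gene of the panel stood below control, at a log2 fold change of -0.47 for TQ, -0.41 for SARB, -0.27 for 5-FU and -0.10 for Combi. TMM normalization, which takes most genes as unchanged, put this median between -0.07 and -0.02. DESeq2, which used its own size factors and not the housekeeping genes, put it between -0.07 and 0.03. Where neither TMM nor DESeq2 is named, a change is one against the housekeeping genes. All TQ, 5-FU and SARB samples and control replicate 1 shared 1 scanner run, control replicates 2 and 3 and Combi replicate 1 another, and Combi replicates 2 and 3 the last, as read from the scanner file names in the labels. Fits with the run as a block therefore set TQ, 5-FU and SARB against control replicate 1 alone, and Combi replicate 1 against control replicates 2 and 3. Of the epithelial markers on the panel 4 of 4 (CDH1, ITGB4, MET and LAMB3) were above background in all 15 samples. Of 11 markers of blood, fibroblast and endothelial cells 1 (CD40) was, and their summed scaled counts were 167 to 259, 29.6 to 86.3 and 2.17 to 23.9, against 1875 to 4739 for the epithelial markers.

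All 8 members were above the background of the negative probes (their mean plus 2 SD) in all 15 samples. ATM was the dimmest, with raw counts from 22 to 255, down to 1.40 times the background limit, and PRKDC had 568 to 5282. Each gene is read by its own probe, so levels are compared between groups and not between genes. The ratio of the highest to the lowest group mean was 2.69 for ATM, 1.82 for PRKDC, 1.73 for ATR and 1.67 for MDC1, and between 1.32 and 1.41 for BRCA1, RAD50, BRCA2 and NBN. The first 4 carried all 5 calls against control, each in a different set of treatments. PRKDC fell in TQ, ATR fell in 5-FU and SARB, MDC1 fell in SARB, and ATM rose in Combi. Because cultures were measured in bulk, fewer cells with a transcript and less of it per cell cannot be told apart.

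Set against the whole panel, 1 of the 8 members was called lower in TQ (PRKDC), where 21.6% of all genes were, and 1 in 5-FU (ATR), where 10.1% were. In SARB 2 of 8 were called lower and in all genes 19.9%, and in Combi 1 of 8 was called higher and in all genes 13.6%. Without the limit on fold, 6 of 8 members were lower in 5-FU at an adjusted p of at most 0.05, against 15.9% of all genes, and 6 of 8 in SARB against 27.3%. The corresponding counts were 2 of 8 in TQ against 29.9%, and 3 of 8 in Combi against 12.6%, where ATM alone was higher (16% of all genes). These counts depended on the scaling, and after TMM normalization 1 member (ATR) was lower in 5-FU and 0 were in each of TQ, Combi and SARB at this adjusted p, against 8.9%, 6.16%, 8.08% and 12.5% of all genes, while 2 were higher in TQ (MDC1 and BRCA2). DESeq2 gave 1 lower in 5-FU (7.67% of all genes), 1 in Combi (8.77%) and 0 in TQ (5.48%) and SARB (10.3%). The run as a block gave 1 lower in TQ (4.79%), 1 in SARB (11%) and 0 in 5-FU (7.12%) and Combi (6.16%). Without control replicate 3 the counts lower were 2 in 5-FU (11%), 0 in Combi (9.73%) and 3 in SARB (17.4%). The samples lay below all controls for 2 members in TQ (39.5% of all genes), 6 in 5-FU (27.8%), 3 in Combi (16.7%) and 6 in SARB (28.9%). The Combi samples lay above all controls for 1 member, ATM (19.3%). The members' median log2 fold change stood at -0.21 for TQ (panel -0.47), -0.41 for 5-FU (panel -0.27), -0.25 for Combi (panel -0.10) and -0.39 for SARB (panel -0.41). It was above the panel's in TQ and below it in 5-FU and Combi. After TMM normalization the members' median was 0.27, -0.22, -0.15 and -0.04 in the same order of treatments. The 4 comparisons share the 3 control samples.

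**Figure D1:**
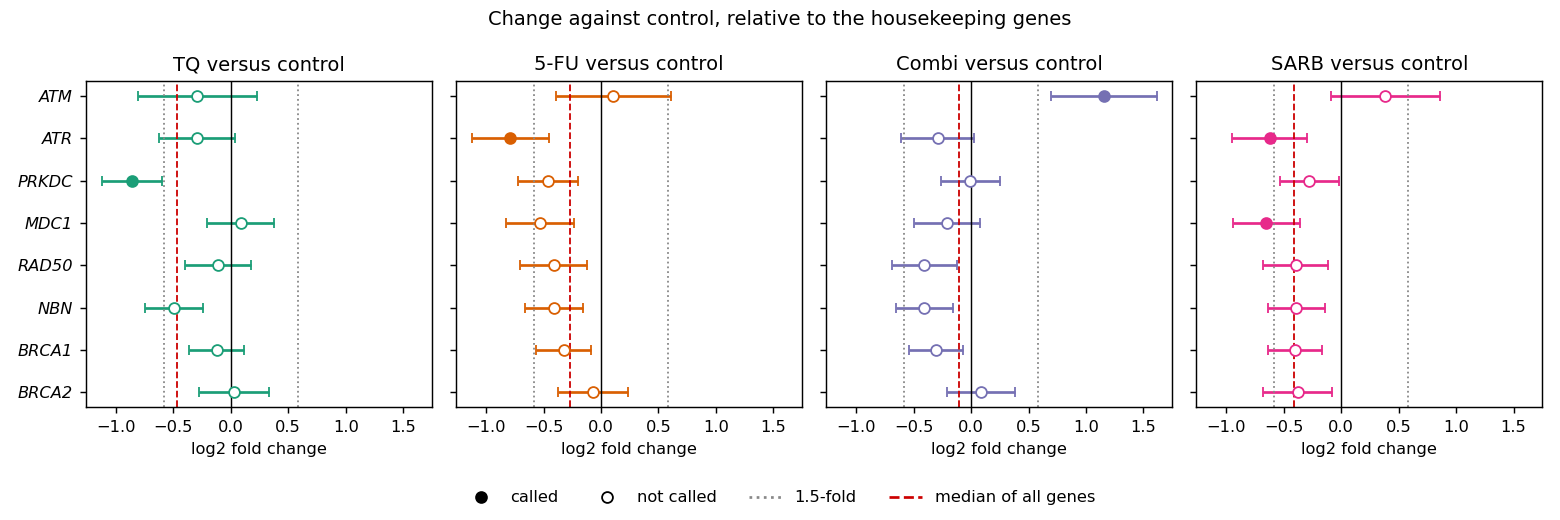
Log2 fold change of each member against control, 1 panel per treatment, with 95% confidence intervals of edgeR's quasi-likelihood fit (filled points called, dotted lines 1.5-fold, dashed line the median of all 730 genes). PRKDC is the called member in TQ (-0.86), ATR in 5-FU (-0.79), ATM in Combi (1.16), and ATR (-0.62) and MDC1 (-0.65) in SARB.

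**Figure D2:**
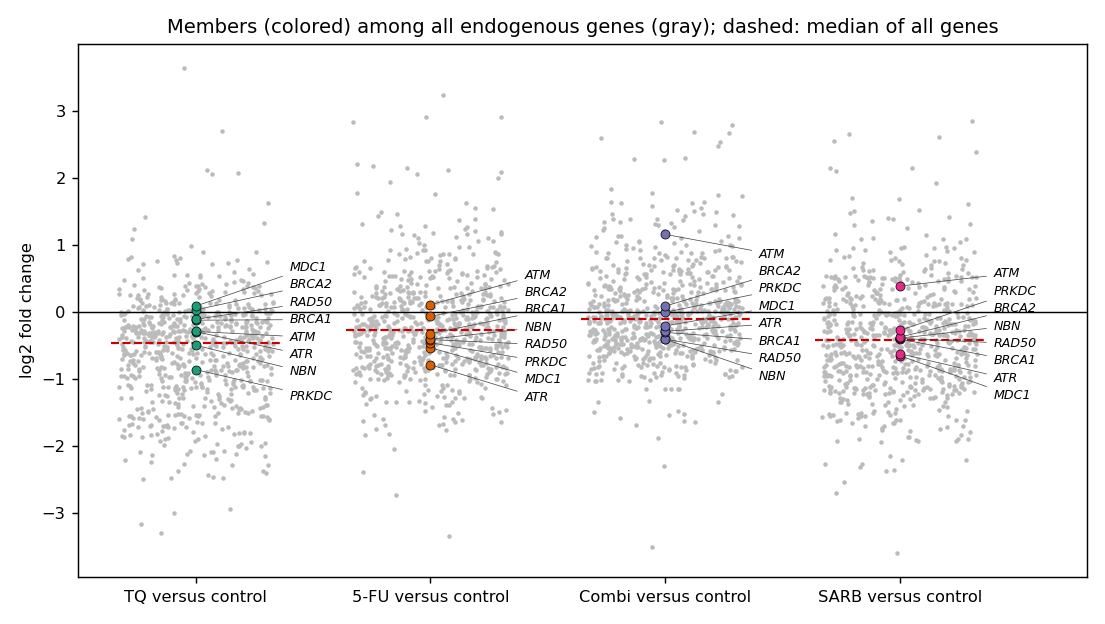
Log2 fold change against control of all 730 endogenous genes (gray points, scattered sideways for visibility) with the 8 members in color and the median of all genes as a dashed line, 1 column per treatment. ATM in Combi, at 1.16, is the member farthest from 0, and 43 genes lie above it.

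**Figure D3:**
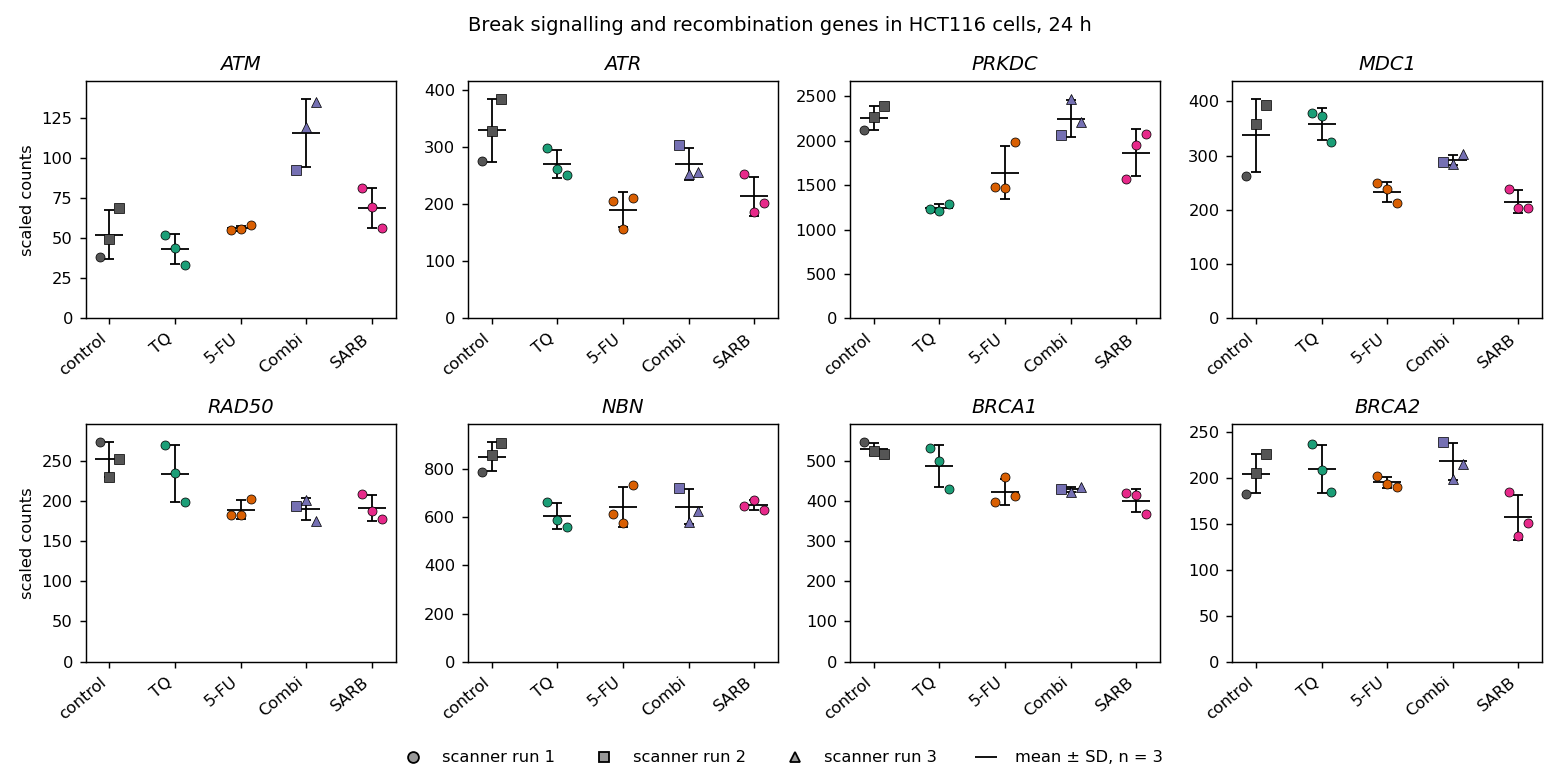
Scaled counts of the 8 measured members in every sample, with control, TQ, 5-FU, Combi and SARB along the x axis, 1 symbol shape per scanner run, and bars for the mean ± SD (n = 3). PRKDC was lowest in TQ (1206 to 1290 scaled counts) and ATM highest in Combi (92.9 to 135), in both cases apart from all control samples.

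ATM, the kinase that starts the response to breaks, counted 38.4, 49.7 and 68.7 scaled counts in control replicates 1, 2 and 3. It counted 52.2, 43.8 and 33.3 in TQ, 55.4, 55.6 and 58.1 in 5-FU, and 81.4, 69.5 and 56.4 in SARB. In Combi it counted 92.9, 119 and 135, so that all Combi samples lay above all samples of the other groups, while the other 3 treatments overlapped with control. The group means were 52.3 ± 15.3 (SD, n = 3) in control and 116 ± 21.4 in Combi, so ATM rose by 1.16 on the log2 scale (SE 0.22, edgeR adjusted p = 0.000297). In this comparison 43 genes of the panel had a higher log2 fold change. The log2 fold change was 0.38 in SARB (adjusted p = 0.188), 0.11 in 5-FU (0.773) and -0.29 in TQ (0.352), none of them called. ATM in SARB was called after TMM normalization (0.75, adjusted p = 0.0127) and in DESeq2 (0.76, adjusted p = 0.0234). Combi lay above TQ by 1.45 (adjusted p = 2.25e-05) and above 5-FU by 1.05 (0.00133), and SARB lay above TQ by 0.68 (0.0327). Within the run they shared, Combi replicate 1 with 92.9 stood above control replicates 2 and 3, and with the run as a block the change in Combi was 0.66 and no longer called (adjusted p = 0.145). The differences of Combi from TQ (0.50) and 5-FU (0.11) were not called with the block either. The Combi samples also averaged 12.9 to 16.4 counts on the negative probes against 6.75 to 12.3 in control, and after their subtraction the change was 1.37 and still called.

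ATR, the kinase of replication stress, counted 275, 329 and 385 in control replicates 1, 2 and 3. It counted 205, 156 and 211 in 5-FU, and 253, 186 and 203 in SARB, all below every control sample. TQ with 298, 261 and 252 and Combi with 304, 253 and 256 overlapped with control. The control mean of 330 ± 55.1 scaled counts (SD, n = 3) compared with 191 ± 30.2 in 5-FU, where ATR fell by 0.79 on the log2 scale (SE 0.16, edgeR adjusted p = 0.000645). The mean in SARB was 214 ± 34.8, and ATR fell there by 0.62 (SE 0.16, adjusted p = 0.00351). The values for TQ and Combi were -0.30 (adjusted p = 0.141) and -0.29 (0.189). 5-FU stood below TQ (TQ over 5-FU 0.49, adjusted p = 0.0276) and below Combi (Combi over 5-FU 0.50, adjusted p = 0.0282), both short of 1.5-fold. The former was called after TMM normalization (0.76, adjusted p = 0.00161) and in DESeq2 (0.79). The latter did not pass the adjusted p after TMM normalization (0.39, 0.107), in DESeq2 (0.32) or with the run as a block (0.30). In limma on the authors' normalized values neither passed (0.52, adjusted p = 0.0973, and 0.51, adjusted p = 0.123). The ATR call in 5-FU was lost with the run as a block (-0.53, adjusted p = 0.0946) and in DESeq2 (-0.58), and that in SARB with the block (-0.36), after TMM normalization (-0.26), in DESeq2 (-0.24), and when control replicate 3 (-0.50) or either of SARB replicates 2 and 3 was left out.

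PRKDC, the DNA-PK catalytic subunit, counted 2118, 2268 and 2392 in control replicates 1, 2 and 3, and 1236, 1206 and 1290 in TQ. It counted 1475, 1468 and 1984 in 5-FU, 2061, 2474 and 2209 in Combi, and 1566, 1947 and 2077 in SARB. The TQ samples lay close together and below all other 12 samples, 5-FU and SARB lay below control, and Combi overlapped with it. With means of 2259 ± 137 scaled counts (SD, n = 3) in control and 1244 ± 42.7 in TQ, PRKDC fell by 0.86 on the log2 scale (SE 0.13, edgeR adjusted p = 4.46e-05). In the same comparison 237 genes of the panel had a lower log2 fold change. In 5-FU it was -0.46 (adjusted p = 0.00783), short of 1.5-fold and at -0.27 after TMM normalization (adjusted p = 0.209), in SARB -0.28 (0.0832) and in Combi -0.01 (0.978). Combi contains 35 µM TQ against 40 µM in TQ alone, and it stood above TQ by 0.86 (adjusted p = 1.59e-05). SARB stood above TQ by 0.58 (adjusted p = 0.00144) and 5-FU above TQ, with TQ over 5-FU at -0.40 (adjusted p = 0.0238), which did not pass after TMM normalization (-0.13, adjusted p = 0.615). With the run as a block PRKDC in TQ was -0.77 and still called, while after TMM normalization it was -0.41 (adjusted p = 0.0634) and in DESeq2 -0.37 (adjusted p = 0.112), and neither was called. The call of Combi against TQ was also lost after TMM normalization (0.49), in DESeq2 (0.39) and with the run as a block (0.59, adjusted p = 0.203).

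MDC1, the scaffold of the break site, counted 263, 357 and 393 in control replicates 1, 2 and 3, and 379, 373 and 324 in TQ. It counted 250, 238 and 212 in 5-FU, 289, 285 and 302 in Combi, and 239, 203 and 203 in SARB. The 5-FU and SARB samples lay below all control samples, with control replicate 1 close above them, and TQ and Combi overlapped with control. The means were 338 ± 67.2 scaled counts (SD, n = 3) in control and 215 ± 20.9 in SARB, where MDC1 fell by 0.65 on the log2 scale (SE 0.14, edgeR adjusted p = 0.00102). In 5-FU it was -0.53 (adjusted p = 0.00688), short of 1.5-fold, in Combi -0.21 (0.309) and in TQ 0.09 (0.636). After TMM normalization it was -0.32 in 5-FU (adjusted p = 0.167) and 0.56 in TQ (0.0169), and DESeq2 called it higher in TQ (0.60). Between treatments that shared a run, TQ stood above 5-FU by 0.62 (adjusted p = 0.00237), a call lost without TQ replicate 1 or 5-FU replicate 3 (0.56). SARB stood below TQ, at -0.74 (adjusted p = 0.000382), and this was also called under all 7 other settings and whichever sample was left out. The call in SARB against control was lost with the block (-0.29), after TMM normalization (-0.29), in DESeq2 (-0.27) and without control replicate 3 (-0.53).

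RAD50 and NBN, partners in the complex that first binds a break, were not called in any treatment against control by edgeR as reported. NBN ranged from 789 to 911 scaled counts in control. Its ranges were 561 to 666 for TQ, 577 to 736 for 5-FU, 582 to 723 for Combi and 630 to 672 for SARB. All 12 treated samples thus lay below all 3 controls, at log2 fold changes of -0.50 for TQ (adjusted p = 0.00492), -0.41 for 5-FU (0.0134), -0.41 for Combi (0.0124) and -0.39 for SARB (0.0138). None of these reached 1.5-fold, though TQ did after background subtraction (-0.60) and in limma (-0.59). After TMM normalization none of the 4 passed the adjusted p, and NBN was at -0.04 for TQ (adjusted p = 0.852), -0.22 for 5-FU (0.268), -0.32 for Combi (0.0926) and -0.04 for SARB (0.843). With the run as a block none of the 4 passed either (-0.39, -0.30, -0.29 and -0.28 in the same order). In DESeq2 only Combi passed (-0.38, adjusted p = 0.0422). No pair of treatments passed the test for NBN (lowest adjusted p = 0.560). RAD50 ranged from 230 to 274 in control, with 199 to 270 for TQ, 182 to 203 for 5-FU, 175 to 201 for Combi and 178 to 209 for SARB. The last 3 treatments lay below all controls at -0.41 (adjusted p = 0.0293), -0.41 (0.0250) and -0.40 (0.0255), and TQ overlapped with control at -0.11 (0.528). After TMM normalization RAD50 did not pass in any of the 3, at -0.23 (adjusted p = 0.338), -0.32 (0.151) and -0.05 (0.843). Nor did it with the run as a block (-0.53, -0.31 and -0.52). The group means of RAD50 in 5-FU, Combi and SARB were 189 ± 11.8, 190 ± 13.8 and 192 ± 16.0 (SD, n = 3).

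BRCA1, which directs breaks toward recombination, ranged from 517 to 547 scaled counts in control, with 429 to 531 for TQ, 397 to 459 for 5-FU, 422 to 435 for Combi and 367 to 420 for SARB. 5-FU, Combi and SARB lay below all controls, with log2 fold changes of -0.33 (adjusted p = 0.0375), -0.31 (0.0457) and -0.41 (0.00810), all short of 1.5-fold, and TQ was at -0.12 (0.388). After TMM normalization BRCA1 was at -0.13 (adjusted p = 0.549), -0.22 (0.313) and -0.06 (0.761) in the same 3 treatments. The group means of BRCA1 and RAD50 followed each other more closely than those of any other pair of members, with a root mean square difference of 0.05 on the log2 scale over the 5 group means, each gene centered on its own mean. Both genes varied little, with group means that spread by 0.15 (BRCA1) and 0.17 (RAD50) on this scale. BRCA2, which acts later in recombination, ranged from 183 to 226 in control, with 185 to 237 for TQ, 190 to 202 for 5-FU, 199 to 239 for Combi and 137 to 184 for SARB. The first 4 groups overlapped with each other, and SARB overlapped with control and with none of the other treatments. BRCA2 in SARB was at -0.38 against control (adjusted p = 0.0440), -0.41 against TQ (0.0388), -0.46 against Combi (0.0258) and -0.31 against 5-FU (0.367), none of them called. After TMM normalization the values against control (-0.01) and Combi (-0.19) did not pass the adjusted p, and that against TQ did (-0.51, adjusted p = 0.0242). In limma on the authors' normalized values those against TQ (-0.46, adjusted p = 0.0702) and Combi (-0.51, 0.0820) did not pass. That against control did (-0.47, 0.0441).

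Between treatments, 7 of 48 tests were called over the 8 members and 6 pairs, and 16.1% of all such tests over the panel were. SARB, in which TQ and 5-FU are linked in 1 molecule, and Combi, their mixture, were given at the same 35 µM, and 1 of the 8 members was called between them, with 12.3% of all genes. This was ATM, which stood lower in SARB, at -0.77 (SE 0.20, edgeR adjusted p = 0.0105). BRCA2 (-0.46) and MDC1 (-0.44, adjusted p = 0.0301) were also lower in SARB at less than 1.5-fold, neither passing after TMM normalization (-0.19 and -0.18). The 95% intervals for NBN (-0.23 to 0.26), RAD50 (-0.26 to 0.28) and BRCA1 (-0.33 to 0.13) contained 0. Those for ATR (-0.65 to -0.02) and PRKDC (-0.53 to -0.01) lay below 0, but neither passed the edgeR adjusted p (0.131 and 0.137). No run held both treatments, and with the run as a block the ATM difference was 0.17 and that of MDC1 0.09, both of the other sign and not called (adjusted p = 0.997). The ATM difference was also not called after TMM normalization (-0.52), in DESeq2 (-0.44), in limma on the authors' normalized values (-0.79), and without Combi replicate 3 or SARB replicate 3. SARB and 5-FU shared a run, at 35 and 15 µM, and 0 of 8 members were called between them by edgeR or by DESeq2, with 1 at an unadjusted p under 0.05 (BRCA2) and 1.23% of all genes called. Their 95% intervals were -0.32 to 0.15 for BRCA1 and -0.08 to 0.44 for PRKDC. The intervals for ATM (-0.18 to 0.74) and BRCA2 (-0.61 to -0.01) left room for more than 1.5-fold. SARB against TQ gave 2 calls (MDC1 lower and ATM higher), with 19.3% of all genes, and Combi against TQ gave 2 (ATM and PRKDC higher), with 34% of all genes. TQ against 5-FU gave 1 call (MDC1, 17.7% of all genes) and Combi against 5-FU gave 1 (ATM, 11.8%). The ATM call of SARB against TQ was lost after TMM normalization (0.54), in DESeq2 (0.52), after background subtraction (0.70), in limma (0.72) and without TQ replicate 2 or 3 or SARB replicate 1 or 2.

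In the order of levels, few neighboring groups differed past the threshold. For ATM the step from Combi down to SARB was called, and SARB, 5-FU, control and TQ followed without a neighboring pair that passed (lowest adjusted p = 0.352). For PRKDC the order was control, Combi, SARB, 5-FU and TQ, and the last step passed the adjusted p at less than 1.5-fold (0.0238). For NBN the step from control to SARB, the next group, did so as well (0.0138). The neighboring groups of ATR (control, Combi, TQ, SARB, 5-FU), MDC1 (TQ, control, Combi, 5-FU, SARB), BRCA1 (control, TQ, Combi, 5-FU, SARB), BRCA2 (Combi, TQ, control, 5-FU, SARB) and RAD50 (control, TQ, SARB, Combi, 5-FU) did not pass the adjusted p.

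Ratios of 2 members within a sample do not depend on the scaling. They were formed for 2 pairs chosen after the values were seen and are given as a description, without a test. ATM counts were 14.0%, 15.1% and 17.8% of ATR counts in control and 17.5%, 16.8% and 13.3% in TQ. They were 27.0%, 35.6% and 27.5% in 5-FU, 30.6%, 47.2% and 52.8% in Combi, and 32.2%, 37.4% and 27.8% in SARB. All 9 samples that had received 5-FU or the hybrid thus lay above all 6 control and TQ samples, and the 5-FU and SARB samples did so within the run they shared with TQ and control replicate 1. After subtraction of the negative probes' mean the lowest of the 9 was 23.0% and the highest of the 6 was 15.8%. MDC1 counts were 30.6%, 30.9% and 25.1% of PRKDC counts in TQ. Controls had 12.4%, 15.8% and 16.4%, 5-FU samples 16.9%, 16.2% and 10.7%, Combi samples 14.0%, 11.5% and 13.7%, and SARB samples 15.3%, 10.4% and 9.79%. The 3 TQ samples stood above the other 12.

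**Figure D4:**
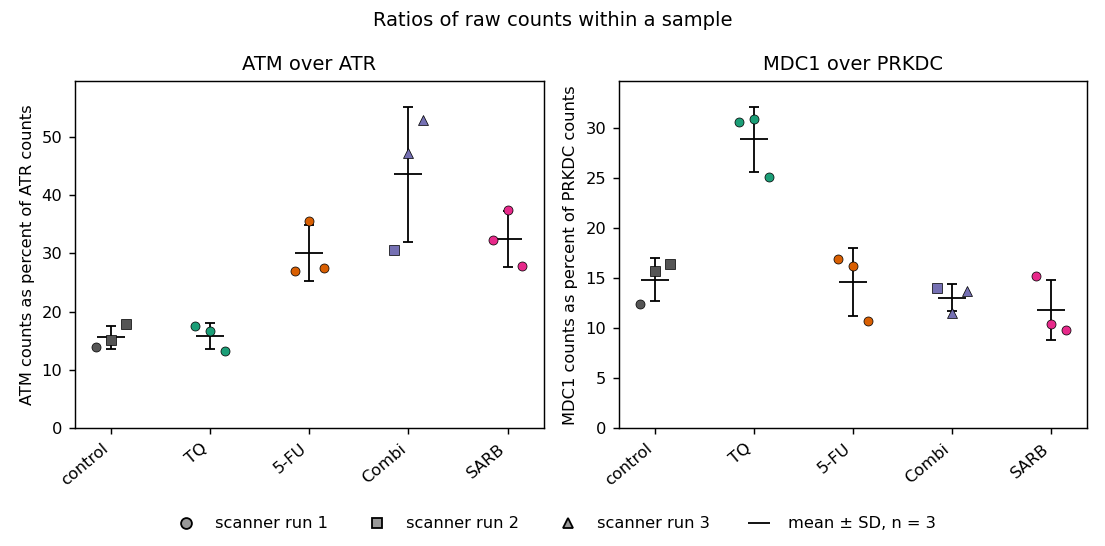
ATM counts as a percent of ATR counts (left) and MDC1 counts as a percent of PRKDC counts (right) in every sample, by group, with the mean ± SD (n = 3) and 1 symbol shape per scanner run. The left ratio is at most 17.8% in control and TQ and at least 27.0% elsewhere, and the right ratio is 25.1% to 30.9% in TQ and at most 16.9% elsewhere.

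For each member the 2 genes of the panel with the closest course over the 5 group means were sought among 404 others above background in all samples, by the root mean square difference of the centered log2 means. ATR was closest to CDC14A (0.04), a phosphatase, and to MSH6 (0.05), a mismatch repair gene. BRCA1 was closest to RFC3 (0.05), a subunit of the clamp loader of replication, and RAD50 to CUL1 (0.05), a ubiquitin ligase scaffold. ATM was closest to RELA (0.07), a subunit of NF-kB, and DKK1 (0.16), a secreted WNT antagonist, while its own group means spread by 0.49 on the same scale. MDC1 was closest to VEGFA (0.05) and FZD7 (0.08), NBN to MAP3K1 (0.07) and SMC3 (0.07), BRCA2 to BRAF (0.06) and PLD1 (0.08), and PRKDC to APC (0.09) and HOXA9 (0.10). The second closest gene of BRCA1 was RAD50 and that of RAD50 was BRCA1 (0.05). On the same scale the group means spread by 0.15 for BRCA1 and 0.17 for each of RAD50, NBN and BRCA2. The spread was 0.28 for ATR, 0.29 for MDC1 and 0.32 for PRKDC.

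For the further genes of repair and replication, the shares of the panel called lower were 21.6% for TQ, 10.1% for 5-FU, 6.58% for Combi and 19.9% for SARB, and those called higher 3.42%, 10.3%, 13.6% and 8.63%. Of 9 further genes of break signaling and recombination, 1 was called lower in TQ, and 2 lower with 1 higher in each of 5-FU, Combi and SARB. H2AFX, which encodes the histone that ATM phosphorylates at breaks and MDC1 reads, fell in all 4 treatments by edgeR. Its mean was 948 ± 14.6 scaled counts (SD, n = 3) in control, 330 ± 59.2 in Combi, 431 ± 189.5 in SARB, 473 ± 118 in TQ and 499 ± 87.3 in 5-FU. CHEK1, the checkpoint kinase that ATR activates, fell from 849 ± 42.9 to 528 ± 72.4 in 5-FU, 538 ± 18.6 in Combi and 501 ± 31.8 in SARB, by 0.69, 0.66 and 0.76 on the log2 scale. XRCC4, a partner of DNA ligase IV in end joining, rose from 771 ± 79.6 to 1403 ± 51.9 in 5-FU (0.87) and 1283 ± 47.0 in SARB (0.74). RAD52, a recombination mediator, rose from 156 ± 46.9 to 288 ± 40.8 in Combi (0.88). Calls lost after TMM normalization were those of H2AFX in TQ (-0.58) and of CHEK1 in 5-FU (-0.50), Combi (-0.57) and SARB (-0.42). Calls lost with the run as a block were those of H2AFX in TQ (-1.02, adjusted p = 0.108) and 5-FU (-0.92), XRCC4 in SARB (0.57) and RAD52 in Combi (0.41).

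Of 9 genes of the Fanconi anemia pathway, which repairs DNA crosslinks, 2 were called lower and 1 higher in TQ, 1 each way in 5-FU, 1 lower in Combi and 2 lower in SARB. BRIP1, a helicase that binds BRCA1, fell in TQ (-0.72). FANCG rose in TQ (0.62) and 5-FU (0.78), FANCC fell in 5-FU (-0.69), FANCF fell in TQ (-0.98) and SARB (-1.12), and UBE2T, the ubiquitin-conjugating enzyme of the pathway, fell in Combi (-0.92) and SARB (-0.79). With the run as a block 6 of these 8 calls were lost, all but those of FANCG in 5-FU and UBE2T in SARB. TMM normalization lost the calls of BRIP1 (-0.25) and FANCF (-0.51) in TQ, FANCC in 5-FU (-0.50) and UBE2T in SARB (-0.46). FANCF and FANCG in TQ were each also lost without either of 2 single samples, control replicate 3 among them.

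Of 14 genes of mismatch, base and nucleotide excision repair and direct reversal, 3 were called lower in 5-FU and Combi and 5 in SARB. Those called higher numbered 2, 3 and 2 in the same order. In TQ edgeR called 0 and DESeq2 called 1. There 6 of the 14 had an unadjusted edgeR p under 0.05, and 29.9% of all genes were lower even at the adjusted p. DDB2, a p53 target that recognizes ultraviolet damage, rose from 423 ± 76.8 to 1612 ± 25.6 in 5-FU (1.93), 904 ± 27.5 in Combi (1.10) and 1198 ± 112 in SARB (1.50). ERCC6, a factor of transcription-coupled repair, rose in Combi (1.11), NTHL1, a DNA glycosylase, fell in 5-FU (-0.89), Combi (-0.82) and SARB (-0.89), MSH6 fell in 5-FU (-0.87), and FEN1, the flap endonuclease, fell in SARB (-0.95). The call of NTHL1 in SARB was lost after TMM normalization (-0.55), and the other named calls of this list held under the alternatives run, leaving out 1 sample included.

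Of 16 genes of DNA replication and S phase entry, 1 was called lower for TQ (21.6% of the panel), 4 for 5-FU (10.1%), 4 for Combi (6.58%) and 3 for SARB (19.9%). Those called higher numbered 1 (3.42%), 4 (10.3%), 3 (13.6%) and 1 (8.63%). Subunits of the replicative helicase fell, with MCM7 at -1.03 in Combi and -0.92 in SARB, MCM4 at -0.88 and -0.73, and MCM5 at -0.85 in 5-FU and -1.12 in SARB. POLE2, a subunit of polymerase epsilon, fell in 5-FU (-0.78), and PCNA, the sliding clamp, fell in TQ (-0.70). CCNE1, the cyclin of S phase entry, rose in TQ (0.79) and Combi (0.82), and CCNE2 rose in 5-FU (0.77). After TMM normalization MCM7 (-0.57) and MCM4 (-0.37) in SARB and PCNA (-0.25) in TQ were not called. DESeq2 did not call these either (-0.56, -0.35 and -0.22), nor POLE2 in 5-FU (-0.58). The call of MCM4 in SARB was also lost with the run as a block (-0.58). The list's median log2 fold change was -0.16 for SARB, -0.19 for TQ, -0.22 for Combi and -0.25 for 5-FU, and that of the 9 break signaling genes -0.29, -0.37, -0.22 and -0.18 in the same order, beside panel medians of -0.41, -0.47, -0.10 and -0.27. Medians of the Fanconi genes were -0.34, -0.44, -0.04 and -0.34, and those of the 14 other repair genes -0.29, -0.25, -0.18 and -0.24.

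**Figure D5:**
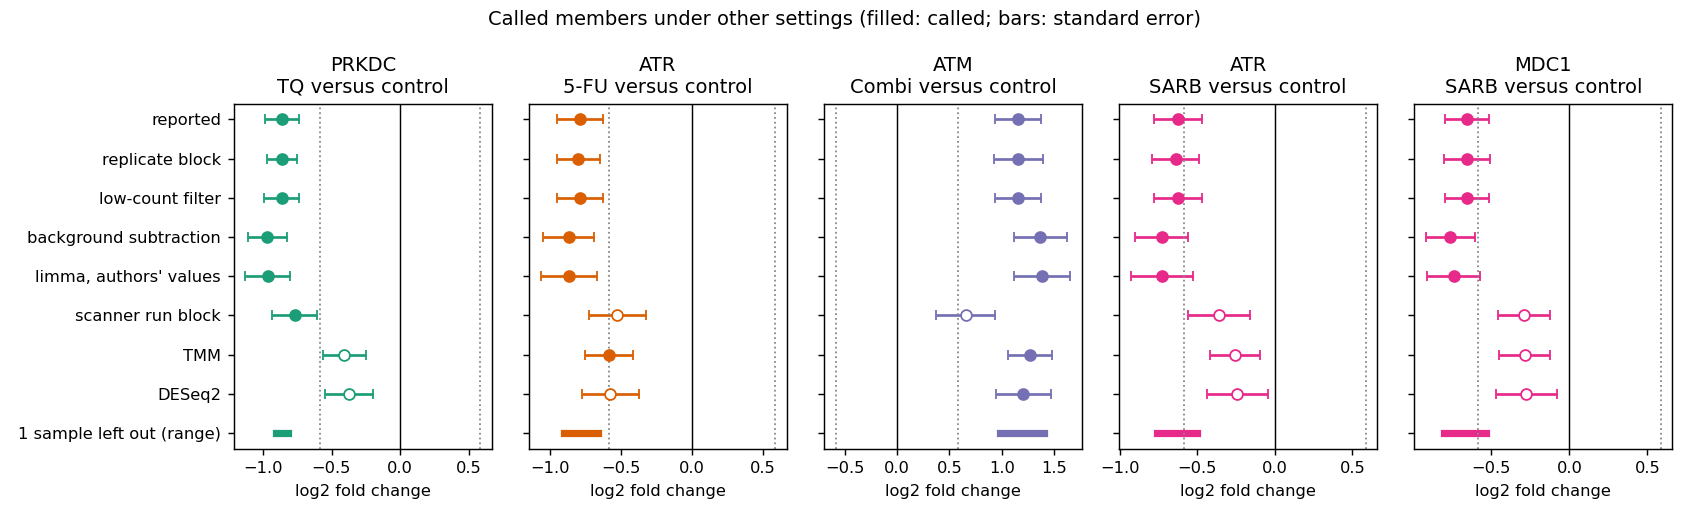
Log2 fold changes of the 5 calls of members against control as reported and under 7 other settings (points with standard errors, filled where called), with the range over leaving out 1 sample as a thick line and 1.5-fold as dotted lines. PRKDC in TQ ranges from -0.91 to -0.82 without 1 sample and is at -0.41 after TMM normalization, and ATM in Combi ranges from 0.99 to 1.40 and is at 0.66 with the scanner run as a block.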

How the data were processed

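RNA of 15 HCT116 cultures (5 groups, 3 samples each, grouped by the sample titles) was counted with the NanoString PanCancer Pathways panel from 50 ng total RNA. The authors deposited raw counts per probe, which were used as deposited, without background subtraction or a filter. They also deposited a normalized signal, made in nSolver, which matched, within 1% for 100% of values in every sample, a reconstruction from the raw counts, in which the 8 negative probes' geometric mean was subtracted, values under 1 were set to 1 and 1 factor was applied per sample. A table of the authors' own fold changes and p-values was not used.

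Counts of 730 endogenous genes entered 1 quasi-likelihood fit (edgeR 4.0.16, R 4.3.3) over all samples, with library sizes set by the geometric mean of the 40 housekeeping genes. Alternatives were TMM, DESeq2 1.42.0, a background filter, background subtraction, limma 3.58.1 on log2 of the authors' normalized signal without a pseudocount, blocks for replicate number or scanner run, and leaving out each sample. The fit was tested on simulated data. Members, lists and tests were chosen with earlier results of these data known. All members are named, with the up to 3 called genes per list and comparison with the largest change and the 2 closest genes per member. The lists were written from general knowledge, and 1 gene of them is not reported here. Standard errors are the log2 fold change over the root of F. Probes are counted once per molecule, and 3 samples per group limit the precision.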

Additional observations from a re-analysis of the deposited data

How the results depend on the processing

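Against control, 2 members were called for SARB and 1 each for TQ, 5-FU and Combi. TMM normalization gave 0 in TQ and 1 in SARB (ATM higher in place of ATR and MDC1), and DESeq2 gave 0 in 5-FU and 1 in SARB, and in TQ 1 that was MDC1 higher (0.60) in place of PRKDC. Background subtraction and limma on the authors' normalized values both gave 2 in TQ, with NBN (-0.60 and -0.59), and 2 in 5-FU, with MDC1 (-0.61 and -0.59). The scanner run as a block gave 0 in each of 5-FU, Combi and SARB, and 4 in place of 7 between treatments, 3 of them shared, and rests on few samples. Over leaving out 1 sample the counts were 0 to 2 for SARB, 1 to 2 for 5-FU, 1 to 1 for TQ and for Combi, and 6 to 8 between treatments. The count in 5-FU was 2 without control replicate 1 or 5-FU replicate 1 (MDC1) or 5-FU replicate 3 (PRKDC, -0.62), and that in SARB was 0 without control replicate 3 and 1 without SARB replicate 2 or 3.

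Signs changed only for values that were not called against control as reported, and for ATM (0.17) and MDC1 (0.085) in SARB against Combi with the run as a block. With TMM normalization and DESeq2 in that order, the values in TQ were 0.21 and 0.24 for ATM, 0.18 and 0.21 for ATR, 0.33 and 0.37 for BRCA1, and 0.35 and 0.39 for RAD50. In the same order BRCA2 in 5-FU was 0.13 and 0.15, PRKDC in Combi 0.086 and 0.024, and PRKDC in SARB 0.083 and 0.094, and DESeq2 put BRCA2 in SARB at 0.0016. With the run as a block ATM in TQ was 0.15 and BRCA2 in 5-FU 0.10. BRCA2 in TQ was -0.015 after background subtraction and -0.010 in limma. Without 1 sample, BRCA2 in TQ ranged from -0.050 to 0.11, MDC1 in TQ from -0.064 to 0.21, ATM in 5-FU from -0.066 to 0.35, BRCA2 in 5-FU from -0.14 to 0.0068, and PRKDC in Combi from -0.081 to 0.052. The cause was not tested.

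Of 38 named list values, 12 were no longer called after TMM normalization, 12 in DESeq2 and 11 with the run block, with no change of sign. The low-count filter and the replicate block changed no call of the 47 member values checked. These were all values against control and, between treatments, those that passed the adjusted p as reported. No clear pairing by replicate number was seen. Of 30 same-numbered pairs of samples, 10 had deviations from the group means that correlated over 0.1 (-0.50 to 0.47). Of 15 samples, 4 correlated best with their own number. Scanner runs also split the control and Combi replicates, so this check cannot decide whether the numbers pair the samples. With the replicate block the counts of called members were 1, 1, 1 and 2 against control and 7 between treatments. ATM, with 22 to 255 raw counts, has the widest intervals of the 8 members, and control replicate 1 sets the reference of 3 treatments within their run.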
